A study of Mus musculus with 6 samples.

Results

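The 9 genes described here encode transcription factors that set the fate of T cells and natural killer (NK) cells, namely Eomes, Tbx21, Runx3, Tcf7, Tox, Bcl11b, Gata3, Foxp3 and Id2. They were taken by gene symbol from the 21720 symbols of the deposited expression table, and all 9 were found and passed the filter on low counts. They were chosen by function, with the log2 fold changes between luteolin and control libraries of this same table already known, so those differences are given as a description and nothing is supported with them. The question asked of each gene was whether its level in control tumours lay where lymphocyte genes lay or where genes of the tumour cells lay. RNA was sequenced from subcutaneous tumours of H22, a mouse hepatocellular carcinoma line, grown in wild-type BALB/c mice, which the study describes as female and 6 to 8 weeks old. Mice received by gavage either the vehicle, 0.5% carboxymethyl cellulose sodium (control), or luteolin, a flavonoid of plants, at 200 mg/kg, in 0.2 mL once a day over 21 days, starting at a tumour volume of about 50 mm3. Each group gave 3 libraries, named control and luteolin replicates 1 to 3. Both groups carry the same graft of 1 cell line in hosts with their own immune system, so a piece of tumour holds RNA of H22 cells and of host cells.

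Lineage transcription factors act in pairs and in rivalry. Eomes and T-bet, the product of Tbx21, are related T-box proteins that drive interferon-γ and cytotoxic genes in NK cells and CD8+ T cells, and Runx3 acts beside them in CD8+ T cells. TCF-1, the product of Tcf7, keeps resting and stem-like T cells, Tox accompanies chronic stimulation, Bcl11b commits cells to the T lineage, Gata3 directs type 2 helper cells, and Foxp3 defines regulatory T cells. Id2 lacks a DNA-binding region, blocks E proteins, and is required for NK cells and other innate lymphoid cells. The genes lie apart on the mouse genome (GRCm38, GENCODE M21). Eomes spans chr9:118478212-118486132, Tbx21 chr11:97098071-97115331, Runx3 chr4:135120652-135177990, Tcf7 chr11:52252371-52283014, Tox chr4:6686353-6991557, Bcl11b chr12:107910403-108003602, Gata3 chr2:9857078-9890034, Foxp3 chrX:7573644-7595245 and Id2 chr12:25093799-25097140. Several of these genes also work outside lymphocytes. Eomes acts in trophoblast and early endoderm, Gata3 and Bcl11b in skin, and Id2 in many tissues, myeloid cells included.

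Total counts ranged from 61081637 to 80442954 per library, and 15579 to 16767 genes had a count above 0. Between 1 and 40, multiples of 4 made up 44.8% of the values, and 70.3% with those that lie 1 above such a multiple, so that 1 unit need not be 1 read pair. A listed 0 is compatible with up to 3 counts (12 if a single pair adds 4), which takes in counting error alone. Neither the labels nor the paper's methods say that each library came from a separate mouse, so tests measure the spread between these libraries. The hepatoma label was checked against 11 genes of hepatocytes and hepatoma. Krt18, Epcam and Afp were present in every control library, with 172 ± 14.4, 57.8 ± 3.61 and 16.8 ± 3.53 CPM per kb (SD, n = 3). CPM is the count scaled to a normalized library total of 1000000, and CPM per kb divides it by the summed exon length of the gene. Hnf4a, a defining hepatocyte factor, had 0, 12 and 0 counts in control replicates 1, 2 and 3, and Alb varied from 56 to 3905. Luteolin replicate 2 stood apart by its skin genes. The 10 keratinocyte markers summed to 9530 CPM in that library, to 416 and 23.8 CPM in luteolin replicates 1 and 3, and to between 9.34 and 11.8 CPM in the control libraries, in which Krt14, Krt5, Krt1, Krt15, Dsg1a and Dsc3 were at 0.

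In control tumours, Eomes, Tcf7 and Id2 lay above every T-cell marker, and by their means the other 6 factors lay among the T-cell markers or below them. The reference was a list of 15 T-cell genes of the receptor complex, its coreceptors and its proximal signalling. The receptor chain genes Trac, Trbc1 and Trbc2 had no entry, so no factor was compared with them. The median of these markers was 0.436, 0.659 and 0.384 CPM per kb in control replicates 1, 2 and 3, and the highest marker on average was Lck, the kinase that starts receptor signalling, with 1.22 ± 0.219 CPM per kb (SD, n = 3). Eomes had 19.7 ± 2.68 CPM per kb in the control libraries, Tcf7 13.7 ± 2.42 and Id2 3.21 ± 0.349 (SD, n = 3 each). Each of these 3 genes exceeded all 15 T-cell markers in every control library. By mean level, most genes with a count also lay above these markers. Of 16561 genes with a length and a count above 0 in control tumours, 83.0% lay below Eomes, 75.5% below Tcf7 and 46.0% below Id2. Runx3, whose mean of 1.18 CPM per kb was just under that of Lck, had 34.8% below it. Eomes and Tcf7 also exceeded all 12 genes of an NK-cell list in every control library, and Id2 exceeded 11 of them. Eomes stood close to Afp, which encodes α-fetoprotein, 1 gene of the hepatoma list that was chosen after its value was seen. Genes from the lists of lymphocyte genes described below also lay near it, with Tigit at 15.3, Cbfb at 26.1 and Cxcr3 at 28.0 CPM per kb. Eomes exceeded 9 of the 11 hepatocyte and hepatoma genes by its mean level. That count was not particular to Eomes, as Tcf7 exceeded 8 and Id2 and Runx3 exceeded 7 each. Most genes of that list were low, and its median was 0.442, 1.67 and 0.371 CPM per kb in control replicates 1, 2 and 3. The list as a whole therefore does not mark a level of tumour cells.

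By their means, Runx3, Gata3, Foxp3 and Tbx21 lay within the range of the T-cell markers. Runx3 had 1.18 ± 0.273 CPM per kb in the control libraries and exceeded 14 of the 15 markers by its mean. In control replicates 1 and 2, Runx3 lay above every marker, with 1.46 and 1.15 CPM per kb against 1.34 and 0.965 for the highest marker. In control replicate 3 it had 0.921 against 1.35. Gata3 had 0.704 ± 0.156 and exceeded 13, Foxp3 had 0.427 ± 0.0787 and exceeded 7, and Tbx21 had 0.227 ± 0.103 and exceeded 5 (SD, n = 3 each). Bcl11b and Tox lay below all 15 markers, with 0.0617 ± 0.0322 and 0.0178 ± 0.00923 CPM per kb (SD, n = 3 each). With exon length, the order of the 9 levels was Eomes, Tcf7, Id2, Runx3, Gata3, Foxp3, Tbx21, Bcl11b and Tox. Neighbours in this order did not overlap over the 3 control libraries except Bcl11b and Tox. The gap between Eomes and Tcf7 was narrow, with 16.9 CPM per kb in the lowest Eomes library and 16.3 in the highest Tcf7 library, and their order depended on the length used. With coding length in place of exon length, Tcf7 stood at 26 ± 6.74 times the median T-cell marker and Eomes at 25.4 ± 6.06 times (SD, n = 3 each). With that length, 4 factors lay above every marker in place of 3, and with the NK-cell list as the reference 2 did. Leaving out control replicate 3 also gave 4. In bulk tissue, fewer cells of a type and less RNA per cell cannot be told apart, and which cells carried each transcript was not tested.

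**Figure D1:**
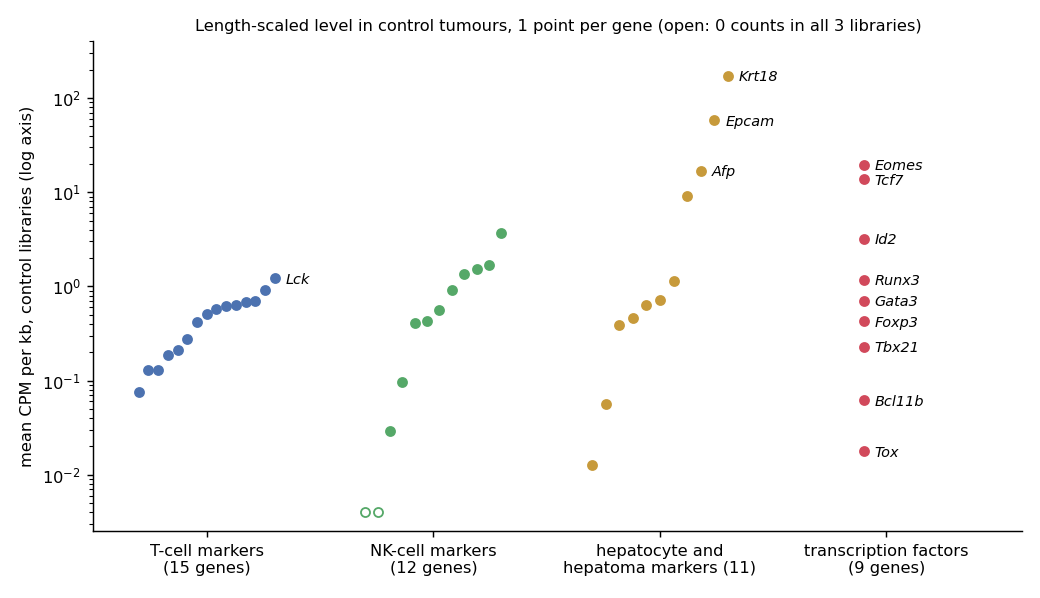
Each point is 1 gene, and the vertical axis gives its mean level in the 3 control libraries in CPM per kb on a log scale, for the T-cell, NK-cell and hepatocyte or hepatoma markers and for the 9 transcription factors. Eomes at 19.7 and Tcf7 at 13.7 stand above all T-cell markers, whose highest point is Lck at 1.22, while Bcl11b and Tox stand at the bottom of the factors. Afp, 1 of the hepatocyte and hepatoma markers, stands at 16.8, and most others of that list lie lower. Open points had 0 counts.

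The study's threshold was a fold change over 2 together with an unadjusted p under 0.05. By it, 6 of the 9 factors were higher in luteolin tumours and 0 were lower in edgeR's quasi-likelihood test. Of the 14963 genes tested, 11.3% were higher and 1.52% were lower at this threshold. At an unadjusted p under 0.05 without a fold limit, 6 factors were higher and 1 was lower, the latter being Eomes, against 14% and 6.44% of all genes. At an adjusted p under 0.05, 1 factor, Id2, was higher and 0 were lower, against 1.34% and 0.187% of all genes. DESeq2 and limma's voom with sample quality weights each placed 3 factors higher and 1, Eomes, lower at an adjusted p under 0.05, and 0 lower at the study's threshold. These tools called more genes at an adjusted p under 0.05, with 9.58% higher and 2.58% lower in DESeq2 and 12.6% higher and 8.76% lower in voom. Every luteolin library lay above every control library for 6 factors and below for 1, shares that were 15.9% and 12.8% over all genes. Since the choice of these genes used this contrast, nothing is read from these shares. The median log2 fold change was 1.68 over the 9 factors and -0.01 over all genes tested. Leaving out control replicate 1, 2 or 3 or luteolin replicate 1 left 0 factors at an adjusted p under 0.05, and without luteolin replicate 2 the study's threshold held for 5 factors.

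**Figure D2:**
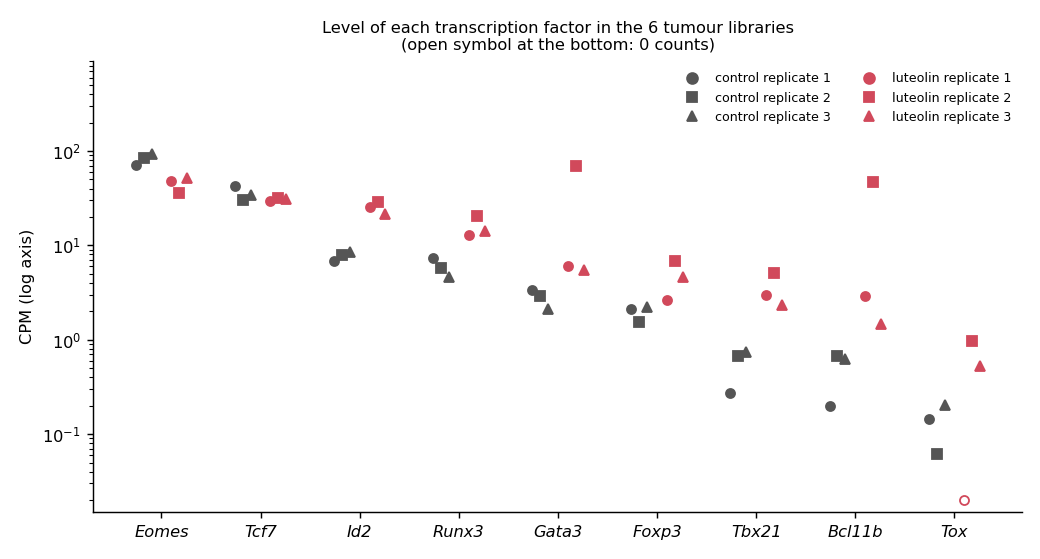
The vertical axis gives CPM on a log scale for each factor, with control libraries in grey and luteolin libraries in red and a symbol for each replicate. Eomes is lower in each luteolin library than in any control library, the points of Tcf7 overlap between the groups, and the luteolin replicate 2 squares of Gata3 and Bcl11b stand far above the others at 69.1 and 47.1 CPM. The open symbol marks 0 counts.

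Eomes, the T-box factor of NK cells and memory CD8+ T cells, had 4909, 5399 and 5955 counts in control replicates 1, 2 and 3, against 2947, 3013 and 3281 counts in luteolin replicates 1, 2 and 3. All 3 luteolin libraries lay below all 3 control libraries. The means were 82.0 ± 11.1 CPM in control and 45.2 ± 8.05 CPM in luteolin tumours (SD, n = 3 each). The log2 fold change was -0.86, with a standard error of 0.19. This change is smaller than 2-fold and did not pass the study's threshold under any of 14 alternative settings, where it ranged from -1.0 to -0.70. Even so, Eomes still exceeded all 15 T-cell markers in every luteolin library. Of the 12 NK-cell genes it exceeded 9 in every luteolin library, against all 12 in every control library.

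Tbx21, the T-box relative of Eomes, moved the other way from a low level. It had 19, 44 and 48 counts in control replicates 1, 2 and 3, against 182, 427 and 149 counts in luteolin replicates 1, 2 and 3, with no overlap between the groups. The means were 0.565 ± 0.256 and 3.47 ± 1.46 CPM (SD, n = 3 each), and Tbx21 rose by 2.62 on the log2 scale (standard error 0.58), past the study's threshold under all 14 alternative settings. Per length, Eomes exceeded Tbx21 by 155, 73.5 and 74.3 times in control replicates 1, 2 and 3, against 9.70, 4.23 and 13.2 times in luteolin replicates 1, 2 and 3. The balance of the T-box pair thus differed between the groups in every library, while Eomes remained the more abundant transcript throughout.

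The promoters of these T-box genes are shown because the genes are related and had changes of opposite sign. They are the 250 bases before the annotated start, 5′ to 3′ on the strand of the gene, from RefSeq on GRCm38.p6, at chr9:118477939-118478188 (plus strand) for Eomes and chr11:97115332-97115581 (minus strand) for Tbx21. Capitals mark the letters AGGTG, the core of a T-box site, or their reverse complement.
Eomes: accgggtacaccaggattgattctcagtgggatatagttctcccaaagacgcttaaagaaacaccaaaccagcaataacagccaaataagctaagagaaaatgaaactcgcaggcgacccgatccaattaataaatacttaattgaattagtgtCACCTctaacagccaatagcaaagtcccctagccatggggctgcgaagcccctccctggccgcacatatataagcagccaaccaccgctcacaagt
Tbx21: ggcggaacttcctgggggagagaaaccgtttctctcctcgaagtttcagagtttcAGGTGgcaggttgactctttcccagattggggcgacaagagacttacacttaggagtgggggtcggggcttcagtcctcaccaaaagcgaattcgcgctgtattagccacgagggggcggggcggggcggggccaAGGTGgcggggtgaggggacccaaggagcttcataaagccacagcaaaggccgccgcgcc

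The Eomes promoter held 1 match to AGGTG, 96 bases before the start, and the Tbx21 promoter held 2, the nearer at 60 bases. At least 1 match was present in 46% of 32851 mouse promoter windows of the same length, searched on both strands, so the letters are common. The Eomes promoter also held the letters TATAA 28 bases before the start, which 22.8% of windows hold, and no GGGCGG. The Tbx21 promoter had no TATAA and 3 matches to GGGCGG, which 32.7% of windows hold. Its base composition was also richer, with 60.8% G and C and 16 CpG against 46.4% and 8 CpG for Eomes. Of the 9 genes, 8 had an entry in the promoter table.

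Tcf7, the factor of resting and stem-like T cells, had 2991, 1965 and 2217 counts in control replicates 1, 2 and 3, against 1815, 2665 and 1980 counts in luteolin replicates 1, 2 and 3, and the groups overlapped. The means were 35.8 ± 6.35 and 30.8 ± 1.14 CPM (SD, n = 3 each), with a log2 fold change of -0.22 (standard error 0.18) that did not pass. Lef1, the closest partner of Tcf7 in T cells, was near the limit of detection in the same tumours, with 8, 3 and 10 counts in control replicates 1, 2 and 3, against 22, 85 and 52 counts in luteolin replicates 1, 2 and 3. Tcf7 therefore exceeded Lef1 per length by 742 to 2193 times in control libraries and by 105 to 276 times in luteolin libraries, with wide error from the few Lef1 counts. Tcf7l2, another relative, rose by 1.84 on the log2 scale (standard error 0.41), from 2.13 to 7.64 CPM.

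Tox, an HMG-box factor of exhausted T cells, was at the edge of detection. It had 10, 4 and 13 counts in control replicates 1, 2 and 3, against 0, 82 and 34 counts in luteolin replicates 1, 2 and 3. The groups overlapped because luteolin replicate 1 had 0 counts. Its log2 fold change of 1.89 had a standard error of 1.40, and limma's voom with sample quality weights turned the direction, to -1.84. At this depth no difference in Tox was detectable.

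Runx3, which supports the CD8 lineage and tissue-resident T cells, had 512, 372 and 297 counts in control replicates 1, 2 and 3, against 786, 1718 and 908 counts in luteolin replicates 1, 2 and 3. All luteolin libraries were above all control libraries. Runx3 rose from 5.89 ± 1.37 to 15.9 ± 4.12 CPM (SD, n = 3 each), by 1.43 on the log2 scale with a standard error of 0.30, and stayed past the study's threshold under all 14 alternative settings. Its relatives Runx1 and Runx2, which act in blood and bone cells, had 6.63 ± 0.902 and 3.14 ± 0.0736 CPM per kb in control tumours (SD, n = 3 each), above Runx3 at 1.18, and log2 fold changes of 0.59 (standard error 0.26) and 0.21 (standard error 0.15) that did not pass.

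Id2, the inhibitor of E proteins, had the smallest standard error of the 6 factors that passed. It had 483, 517 and 554 counts in control replicates 1, 2 and 3, against 1552, 2397 and 1360 counts in luteolin replicates 1, 2 and 3, so the lowest luteolin library lay above the highest control library. The means were 7.83 ± 0.85 and 25.1 ± 3.71 CPM (SD, n = 3 each). Id2 rose by 1.68 on the log2 scale (standard error 0.22), and leaving out any 1 library kept this between 1.57 and 1.75. Id3, a relative that is high in resting T cells, had 13.9 CPM in control and 13.0 CPM in luteolin tumours, with a log2 fold change of -0.09 (standard error 0.45) that did not pass. Per length, Id2 stood at 0.342, 0.382 and 0.550 times Id3 in control replicates 1, 2 and 3, against 2.23, 0.917 and 2.01 times in luteolin replicates 1, 2 and 3. Myeloid cells also use Id2. The 10 myeloid markers summed to between 1270 and 1533 CPM in control and between 1599 and 2299 CPM in luteolin libraries. Of the 10, 6 passed the study's threshold, all higher, against 11.3% of all genes, and their part in the Id2 level was not tested.

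Gata3 and Bcl11b were raised mostly in 1 library. Gata3, the type 2 factor, had 234, 190 and 137 counts in control replicates 1, 2 and 3, against 366, 5772 and 352 counts in luteolin replicates 1, 2 and 3. Luteolin replicate 2 held 85.7% of the summed luteolin CPM of Gata3. Bcl11b, the T-lineage commitment factor, had 14, 44 and 40 counts in the same order of control replicates and 179, 3935 and 94 counts in luteolin replicates 1, 2 and 3, with 91.5% in luteolin replicate 2. Both genes lay above every control library in all luteolin libraries.

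With all libraries, Gata3 rose by 3.26 on the log2 scale (standard error 1.04) and Bcl11b by 5.10 (standard error 1.45). Without luteolin replicate 2, the log2 fold changes were 1.05 for Gata3 and 2.15 for Bcl11b, both still past the study's threshold. Gata3 lost the threshold without control replicate 2 or control replicate 3, where its log2 fold changes were 3.21 and 3.09. DESeq2 gave no p for either gene. Luteolin replicate 2 was also the library with the highest keratinocyte markers, at 9530 CPM in sum, and in luteolin replicate 3, with 23.8 CPM of these markers, Gata3 had 5.51 and Bcl11b 1.47 CPM against control means of 2.80 and 0.50 CPM. The part of the skin genes in the Gata3 and Bcl11b levels was not tested. Gata2, the relative of Gata3 in mast cells and progenitors, had 2.52 CPM in control and 4.62 CPM in luteolin tumours and did not pass, while Bcl11a, the relative of Bcl11b in B cells and dendritic cells, rose by 3.48 on the log2 scale (standard error 1.12). Luteolin replicate 2 held 82.2% of the summed luteolin CPM of Bcl11a, and without it the ratio of the means went from 11.2 to 2.99 and the call was lost.

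**Figure D3:**
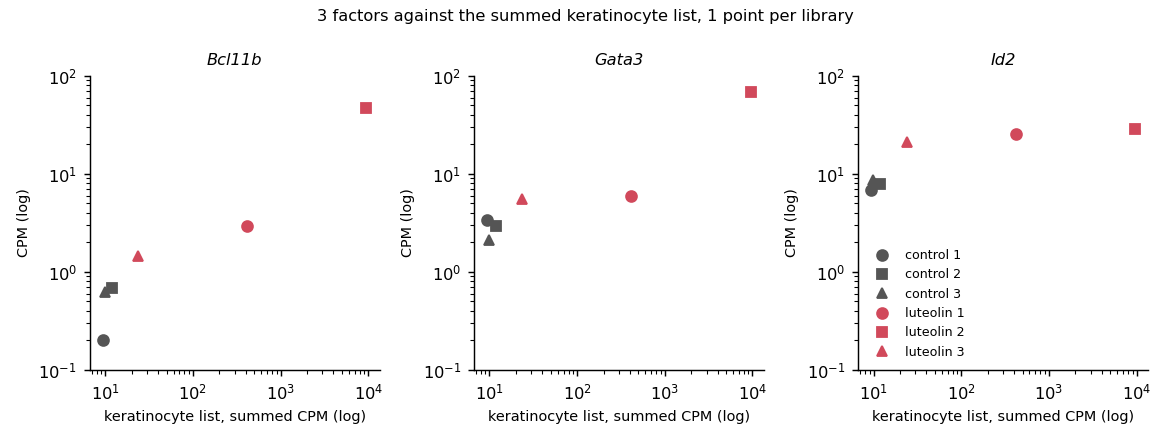
Each panel plots the CPM of 1 factor (vertical, log scale) against the summed CPM of 10 keratinocyte markers (horizontal, log scale), with 1 point per library. Bcl11b and Gata3 have their highest value in luteolin replicate 2, which has the highest keratinocyte sum at 9530 CPM. Id2 is also highest in that library, at 28.7 CPM, but its 3 luteolin values lie close together, between 21.3 and 28.7 CPM.

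Foxp3, which defines regulatory T cells, had 147, 100 and 143 counts in control replicates 1, 2 and 3, against 161, 572 and 294 counts in luteolin replicates 1, 2 and 3. Luteolin replicate 1 was only just above the highest control library, with 2.63 against 2.22 CPM. The means were 1.96 ± 0.36 and 4.69 ± 2.11 CPM (SD, n = 3 each), and Foxp3 rose by 1.26 on the log2 scale (standard error 0.45). The call at the study's threshold held under 7 of 14 alternative settings, and it was lost when any library other than luteolin replicate 1 was left out, with a log2 fold change of 0.90 without luteolin replicate 2. Relative to Cd4, the coreceptor of helper and regulatory T cells, Foxp3 per length stood at 0.719, 0.375 and 0.405 in control replicates 1, 2 and 3, against 0.269, 0.341 and 0.509 in luteolin replicates 1, 2 and 3, and these ranges overlapped.

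**Figure D4:**
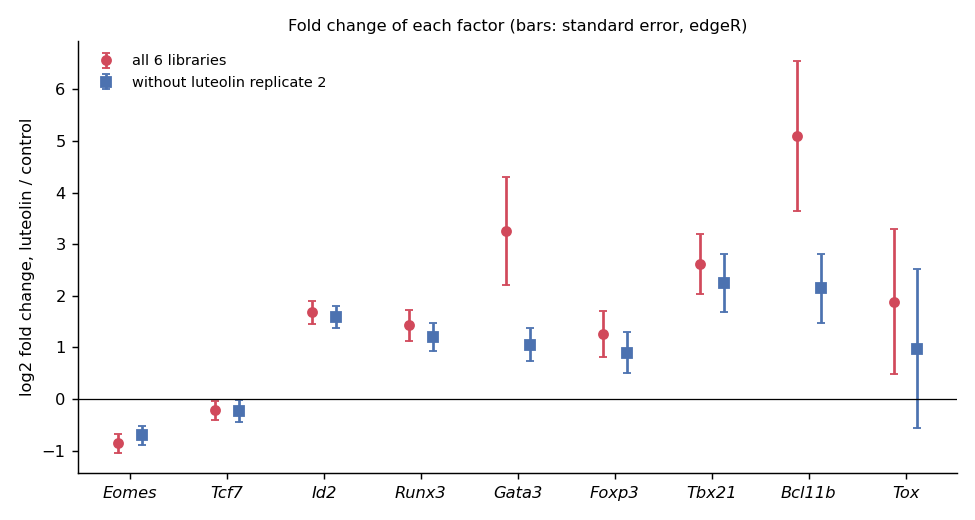
The vertical axis gives the log2 fold change of luteolin over control for each factor, with standard errors from edgeR, for all 6 libraries (red circles) and without luteolin replicate 2 (blue squares). Gata3 and Bcl11b drop from 3.26 and 5.10 to 1.05 and 2.15, while Id2 stays at 1.59 against 1.68 and Eomes at -0.70 against -0.86.

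The T-cell markers themselves were higher in luteolin tumours. All 15 rose past the study's threshold, against 11.3% of all genes, with a median log2 fold change of 2.19. All 15 did so without luteolin replicate 2, against 1139 of 15137 genes. At an adjusted p under 0.05, 3 of the 15 were higher, against 1.34% of all genes. Cd2 and Cd3g, next to Lck in mean level per kb over the 6 libraries, had log2 fold changes of 2.24 (standard error 0.49) and 2.33 (standard error 0.47). The median level of the 15 markers was 0.493 ± 0.146 CPM per kb in control and 2.09 ± 0.762 CPM per kb in luteolin libraries (SD, n = 3 each). It was highest in luteolin replicate 2, with 1.43, 2.92 and 1.92 CPM per kb in luteolin replicates 1, 2 and 3. Each factor was therefore also expressed relative to the median T-cell marker of its own library. For Eomes this ratio was 38.8, 30.5 and 57.8 in control replicates 1, 2 and 3, against 8.11, 2.97 and 6.42 in luteolin replicates 1, 2 and 3. For Tcf7 it was 37.4, 17.6 and 34.1 against 7.91, 4.15 and 6.13 in the same order. Both genes thus had lower ratios in every luteolin library than in any control library. Because the reference itself rose, a gene that did not change also shows a lower ratio. This holds for Tcf7, whose log2 fold change was -0.22, so its lower ratio is no trait of that gene.

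Tbx21 had a ratio of 0.481 ± 0.27 in control and 0.675 ± 0.176 in luteolin tumours, and Foxp3 0.942 ± 0.386 and 0.479 ± 0.0664 (SD, n = 3 each), and the libraries of the groups overlapped for both. Id2 had 6.88 ± 2.12 and 5.28 ± 1.75, and Runx3 2.50 ± 0.814 and 1.56 ± 0.208 (SD, n = 3 each). Gata3 reached 5.94 and Bcl11b 1.99 in luteolin replicate 2 alone, against 1.93 and 0.199 in the highest control library. The mean ratio of Bcl11b was 0.128 in control and 0.777 in luteolin tumours, and luteolin replicates 1 and 3 had 0.252 and 0.0942. Tox stayed far below the markers, with 0.0415 ± 0.0283 and 0.0268 ± 0.0235 (SD, n = 3 each).

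**Figure D5:**
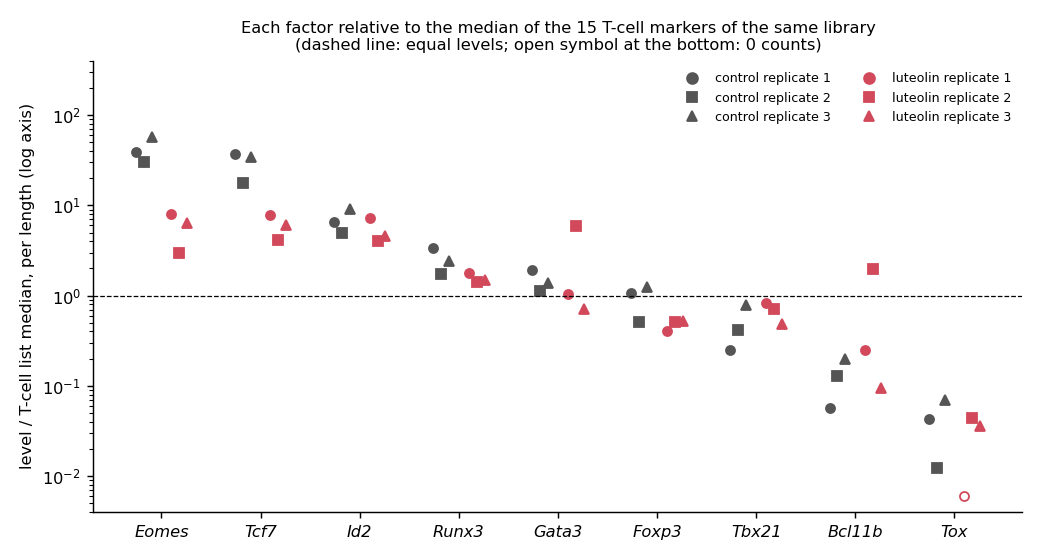
The vertical axis gives the level of each factor, per length, divided by the median of the 15 T-cell markers of the same library, on a log scale. The dashed line marks equal levels and the open symbol 0 counts. The T-cell median itself rose from 0.493 CPM per kb in control to 2.09 in luteolin libraries, which lowers the ratio of any unchanged gene. Eomes and Tcf7 stand between 17.6 and 57.8 in control libraries and between 2.97 and 8.11 in luteolin libraries, whereas Foxp3 and Tbx21 stay near or below the line in both groups.

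Genes that the factors are known to control or accompany were examined in lists drawn up by role. For these and the later lists, the shares over all genes tested were 11.3% higher and 1.52% lower at the study's threshold. Without luteolin replicate 2, 1139 of 15137 genes were higher and 278 lower. Of the 12 genes of the Eomes and T-bet programme, 8 rose past the study's threshold and 0 were lower, with a median log2 fold change of 2.39. Gzma, which encodes granzyme A, rose by 3.46 on the log2 scale (standard error 0.77), and Ccl5, a chemokine of effector T cells, by 3.05 (standard error 0.35). Without luteolin replicate 2, 7 of the 12 were higher, and the ratio of means of Gzma went from 11 to 6.14. Cxcr3, a receptor that T-bet switches on in T cells, had 28.0 ± 7.79 CPM per kb in control and 22.5 ± 3.77 CPM per kb in luteolin tumours (SD, n = 3 each), and its log2 fold change of -0.32 (standard error 0.25) did not pass. Of the 10 NK-cell genes tested, 9 rose, among them Nkg7 by 2.73 (standard error 0.54) and Il2rb by 2.19 (standard error 0.42) on the log2 scale, the exception being Klra4 with a log2 fold change of -0.02 (standard error 0.81), and Klrd1 and Klra8 had 0 counts in every control library. Klra4 has close relatives in its family, so its counts are uncertain.

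The naive and memory programme, where TCF-1 is high, had 7 of 11 genes higher and 0 lower, with a median log2 fold change of 1.29. Ccr7, which guides T cells to lymph nodes, rose by 1.77 (standard error 0.53) and Klf2, which keeps T cells resting, by 1.15 (standard error 0.46) on the log2 scale. Without luteolin replicate 2, 6 of the 11 genes were higher, Klf2 lost its call, with a ratio of means of 1.54 in place of 2.22, and the ratio of Ccr7 went from 3.42 to 2.07. The exhaustion programme, where Tox is high, had 6 of 10 tested genes higher and 0 lower, with a median of 1.80. Tigit, an inhibitory receptor of T and NK cells, had 15.3 ± 2.18 CPM per kb in control and 15.3 ± 1.73 in luteolin tumours (SD, n = 3 each), and the other highly expressed genes of the list, Entpd1 and Nr4a1, had log2 fold changes of 0.92 and 0.56 and did not pass. The regulatory T-cell programme had 8 of 9 genes higher, among them Tnfrsf18, Tnfrsf4 and Ctla4 with log2 fold changes of 2.23, 1.17 and 2.05, and 4 of 9 without luteolin replicate 2. Tnfrsf4 was among the calls lost without that library, and the ratio of means of Tnfrsf18 went from 4.68 to 2.07. The type 2 programme had 4 of 8 genes higher, and 2 of 8 without luteolin replicate 2. Of its most abundant genes, Il1rl1, the receptor for interleukin 33, rose by 2.68 (standard error 0.37) and Rora by 2.66 (standard error 0.73) on the log2 scale, the latter with a ratio of means of 6.31 that became 2.95 without luteolin replicate 2, while Areg had a log2 fold change of 0.68 and did not pass.

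Of 19 other lymphocyte transcription factors, 9 were higher at the study's threshold and 0 lower, with a median log2 fold change of 1.11, and 6 were higher without luteolin replicate 2. Cbfb, the partner subunit of Runx proteins, and Nfil3, an NK-lineage factor, had log2 fold changes of -0.17 and 0.76 and did not pass. Over 25 paralogues of the 9 factors, 18 were tested and 5 were higher, with a median log2 fold change of 0.61, and 2 were higher without luteolin replicate 2. Several abundant paralogues did not pass. Tox4 had 130 CPM in control and 125 CPM in luteolin tumours, Foxp4 77.9 and 69.4 CPM, and Foxp1 26.8 and 30.4 CPM. The T-box genes Tbx3 and Tbx6 had 1.77 and 2.10 CPM per kb in control tumours, below Eomes at 19.7, and log2 fold changes of 0.45 and -0.17. Id1 had a log2 fold change of 1.01 (standard error 0.79) and Tbx1 of 1.51 (standard error 1.05), and neither passed. Tcf7l1 and Id4 rose by 1.89 (standard error 0.72) and 2.46 (standard error 0.87) on the log2 scale, and both lost the call without luteolin replicate 2, where Id4 went from a ratio of means of 5.52 to 2.11. Tox3, Gata4, Gata5 and Gata6 had 0 counts in every control library.

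Since Eomes and Gata3 also act outside lymphocytes, lists for trophoblast and for mesendoderm were read as well. Of 14 trophoblast genes, 8 had 0 counts in every control library, among them Cdx2 and Elf5, which work with Eomes in trophoblast stem cells. The most abundant were Prl2c2, Tead4 and Ets2. Prl2c2 varied from 29 to 3368 counts between control libraries and belongs to a family of similar genes, and Tead4 and Ets2 had 14.2 ± 2.81 and 7.92 ± 1.25 CPM per kb (SD, n = 3 each). Psg17, a pregnancy-specific glycoprotein, had 8.57 ± 1.09 CPM per kb in control tumours (SD, n = 3) and fell by 1.66 on the log2 scale (standard error 0.22). Of 9 mesendoderm genes, T, Gsc, Mesp1 and Foxa2 had 0 counts in every control library, and the list summed to between 0.911 and 1.62 CPM there. Sox17, an endoderm gene, was present in every control library with 100, 42 and 55 counts.

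Of the hepatocyte and hepatoma genes, Epcam, Afp and Krt18 had changes of the same sign as Eomes, but the list as a whole did not. The median log2 fold change of its 10 tested genes was 1.43. Epcam had a log2 fold change of -0.86 (standard error 0.29) and Afp of -0.58 (standard error 0.21), and neither passed the study's threshold, while Krt18 had -0.22 (standard error 0.14). Per length, Eomes stood at 0.312, 0.347 and 0.362 times Epcam in control replicates 1, 2 and 3, against 0.417, 0.187 and 0.582 times in luteolin replicates 1, 2 and 3, and at 0.959, 1.01 and 1.72 times Afp against 1.19, 0.699 and 1.07 times. The ranges of both ratios overlapped between the groups. The ratio of Eomes to Krt18 did not overlap. It was 0.0915, 0.115 and 0.142 in control replicates 1, 2 and 3, against 0.0711, 0.0647 and 0.0848 in luteolin replicates 1, 2 and 3. The 10 hepatocyte and hepatoma genes tested had log2 fold changes from -0.86 to 2.73, and 1 was higher and 0 were lower at the study's threshold. Without luteolin replicate 2, Epcam was called lower, with a ratio of luteolin to control means of 0.424 against 0.550 with all libraries.

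The genes whose log2 CPM followed each factor most closely over the 6 libraries were found by Pearson's r among all genes tested, as a description. Each r is among the highest of 14963 genes over 6 libraries, and a difference between the groups adds to it. For Gata3 and Bcl11b so does luteolin replicate 2, with 85.7% and 91.5% of their summed luteolin CPM, while for Tcf7 and Tox the groups overlapped. For Eomes the closest genes were Trim43a, Snx1 and Speer4a, with r of 0.995, 0.995 and 0.994. For Tbx21 they were Irgm2, Cd300e and Tnfsf10 (0.999, 0.998 and 0.997), for Id2 Ass1, Cd40 and Serping1 (0.999, 0.999 and 0.998) and for Runx3 Rilpl2, Zbed3 and Tnfrsf1b (0.996, 0.996 and 0.994). For Gata3 they were Faah, Ifi27 and Rab11fip4 (0.998, 0.997 and 0.997), for Bcl11b Hook1, Acpp and Matn2 (0.998, 0.997 and 0.995) and for Foxp3 Ctsa, Klhl6 and Ccdc92b (0.989, 0.989 and 0.988). Tcf7 was nearest to Yipf2, Chtf18 and Ift172 (0.988, 0.979 and 0.975), and Tox to Pla2g2d, Osbpl2 and Tspyl4 (0.987, 0.973 and 0.971).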

How the data were processed

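The deposited table holds 1 whole number for each symbol in each library, treated here as estimated counts. The submitters' processing notes name bcl2fastq 2.0, HISAT2, StringTie and DESeq2 and the builds mm39 and rn6, with no role given. The labels and the paper name different RNA extraction and library kits. All 6 libraries were used. Counts were compared in R 4.3.3 with edgeR 4.0.16 (TMM, filterByExpr, quasi-likelihood test, no covariates, Benjamini-Hochberg adjustment over all 14963 genes tested, two-sided). CPM used TMM-scaled totals, and log2 CPM a prior count of 2. Exon lengths came from GENCODE M21 (GRCm38), matched by symbol or RefSeq synonym for 21451 of 21720 symbols. CPM per kb depends on that annotation, which need not be the one used for counting. Trac, Trbc1, Trbc2 and H19 were on lists and not in the table used here. Lists and the 9 factors were chosen with earlier results of these data known. Genes named are the 9 factors, the 3 genes of each list with the highest mean level per kb, defining markers at 0 in control tumours, paralogues with a mean over 1 CPM and the 3 genes closest to each factor. Cd4, Lef1, Afp, Hnf4a, Klra4 and Psg17 were chosen after their values were seen. A gene that this rule takes is not reported here. Alternatives used DESeq2 1.42.0, limma 3.58.1 (voom), other scalings and filters, a replicate block, values divided by 4 and each library left out. The pipeline was tested on simulated counts.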

Additional observations from a re-analysis of the deposited data

How the results depend on the processing

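Each log2 fold change of the 9 factors was recomputed under up to 14 alternative settings. Of 122 values, 111 kept their direction and their side of the study's threshold, 9 fell short of it (Foxp3 and Gata3), 1 passed it (Tox without luteolin replicate 1, 2.47) and 1 turned, Tox to -1.84 in limma's voom. Of the 63 ratios to the T-cell list in control tumours, 2 moved by over 1 SD, with coding length, to 25.4 for Eomes and 11 for Id2.

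At an adjusted p under 0.05, the 200 genes higher and 28 lower became 1543 and 415 in DESeq2, 1886 and 1311 in voom, 345 and 47 with at least 10 counts in every library, and 327 and 46 with values divided by 4. With 1 library left out they ranged from 0 to 276 higher and from 0 to 36 lower, with 0 called without control replicate 1, 2 or 3 or luteolin replicate 1, and 11 lower without luteolin replicate 3. The factors called ranged from 0 to 1 higher. DESeq2 and voom called 3 higher and 1 lower. At the study's threshold, the 227 lower genes became 498 in voom and ranged from 140 to 305 with 1 library left out.

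Same-numbered libraries had correlations of their deviations from the group means of -0.196, -0.092 and 0.0630. Libraries of different number had from -0.124 to 0.200. Same-numbered libraries were thus not more alike, but 3 libraries a group are too few to exclude a pairing by number. With the replicate block, 34 genes higher, 1 lower and 0 factors had an adjusted p under 0.05. With 3 libraries a group, the few counts of Tox, Lef1, Tbx21 and Bcl11b in control tumours limit their ratios.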

Other observations

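Of 74 genes in 7 lists of NK-cell, T-cell programme and transcription factor genes, 26 lay above every T-cell marker in each control library. Their control levels ran from 28.0 CPM per kb for Cxcr3 to 1.53 for Tnfrsf4, against 1.22 for Lck, the highest marker. Of the 26, Cxcr3, Cbfb at 26.1 and Tigit at 15.3 CPM per kb exceeded Tcf7 at 13.7, and their log2 fold changes did not pass the study's threshold. The next was Nfil3 at 9.64. Of the 26 genes, 12 were higher at that threshold, against 11.3% of all genes, with a median log2 fold change of 0.90. Of the other 48 genes, 45 were tested and 33 were higher, with a median of 1.91. The 26 genes were taken by their control level, which is also the base of the fold change. That choice alone favours a smaller rise, so nothing is read from the difference. Which cells carried the 26 transcripts was not tested.

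Psg17, from a family of similar genes, had 1312, 1281 and 994 counts in control replicates 1, 2 and 3 and 356, 474 and 361 counts in luteolin replicates 1, 2 and 3, and was the 1 trophoblast gene called lower.

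At the study's threshold, 11.3% of all genes tested were higher and 1.52% lower, and without luteolin replicate 2, 1139 and 278 of 15137 genes. B-cell markers, with 2 of 6 tested genes higher, had log2 fold changes of 2.17 for Cd79b, 0.75 for Cd22, which did not pass, and 1.51 for Cd79a, whose call was lost without luteolin replicate 2. Of the mast-cell markers 6 of 7 were higher, with Mcpt4, Cma1 and Tpsb2 at 3.06, 2.98 and 3.14. Of the endothelial and fibroblast markers 5 of 9 were higher and 2 of 9 without luteolin replicate 2, with Col1a1, Col1a2 and Dcn at 1.41, 1.06 and 3.84, and Col1a2 was among the calls lost. Of the adipocyte and muscle markers 0 of 7 were higher or lower in edgeR, and with luteolin replicate 2 left out 2 were lower. Of the myeloid markers Lyz2 had a log2 fold change of 0.23 and did not pass, and Cd68 and S100a9 rose by 1.16 and 4.70 on the log2 scale. All 10 keratinocyte markers were higher at the study's threshold, with or without luteolin replicate 2, and 0 at an adjusted p under 0.05. At that adjusted p, 0 B-cell, 0 mast-cell and 0 endothelial and fibroblast markers were higher, and 3 myeloid markers were, against 1.34% of all genes.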
